A study of Homo sapiens with 22 samples.

Results

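The genes described here were taken by their symbols, and most code for splicing factors and RNA-binding proteins of the nucleus. Every gene listed in the tables of both experiments whose symbol starts with SRSF, HNRNP, SNRP, SF3A or SF3B was included, and names of processed pseudogenes (ending in P and a number) were left out. This gave 55 of the 24560 genes: 11 SR protein genes, 24 hnRNP genes, 12 genes of snRNP proteins and 8 genes of SF3 subunits. By their symbols, the hnRNP genes include HNRNPU-AS1, named as an antisense gene, and the readthrough gene HNRNPUL2-BSCL2. The symbol rule leaves out proteins of the same particles with other names, such as SNRNP70 of the U1 snRNP, and these are counted further down with other splicing genes.

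Splicing removes introns from a transcript and is carried out by the spliceosome, which is built from small nuclear ribonucleoprotein particles (snRNPs). A ring of Sm proteins holds the RNA of most of these particles, and the SF3A and SF3B complexes belong to the U2 snRNP, which recognises the branch point. SR proteins bind exonic sequences and promote their inclusion, whereas many hnRNPs bind elsewhere in the transcript and can act against inclusion. The SR proteins are phosphorylated by the SRPK and CLK kinases. Many genes of these families carry poison exons, by which their own transcripts are sent to decay.

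The study measured poly-A RNA of Ls174T, a human colon carcinoma cell line, and used BI8622, an inhibitor of the ubiquitin ligase HUWE1. It asked whether BI8622 acts like depletion of HUWE1 and whether it still acts in HUWE1-depleted cells. It also asked whether the effect of BI8622 needs the transcription factor MIZ1 (gene ZBTB17). In the HUWE1 experiment, cells carried the empty pLKO vector or pLKO with an shRNA to HUWE1 (shHUWE1). In the MIZ1 experiment, all cells carried the inducible pIND vector with an shRNA to MIZ1 (shMIZ1), and the shRNA was either left off or induced with doxycycline (1 µg/ml for 4 days). Each of these 4 arms was treated with DMSO or with BI8622 (20 µM for 16 h), which gave 8 groups of 2 libraries. The paper describes stably infected and selected pools for depletion of HUWE1, and a cell sorting step (FACS) in making the MIZ1-depleted cells. The MIZ1 experiment had no empty-vector group, so any effect of doxycycline itself goes with the shRNA.

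The tables hold no value of a single library. A mean level is given for each compared pair of groups, and the level of each of the 8 groups was solved from these means, in CPM (reads scaled to a common library total). All levels below are such group levels, and a change is the difference of log2(CPM + 1) between groups, on which low genes are understated. The spread between libraries and the depth of the libraries are unknown. The tests rest on how evenly the response to BI8622 repeated over the arms, which share experiments and are not replicate libraries. Where nothing else is named, the test is limma with adjustment over all 24421 genes with a mean level of at least 1 CPM. All 55 genes passed that minimum, and levels in CPM are compared within a gene only, since they are not divided by gene length.

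The targeted genes followed the labels. HUWE1 stood at 420 CPM (DMSO) and 460 CPM (BI8622) with the empty vector and at 218 and 176 CPM with shHUWE1. In the MIZ1 experiment HUWE1 ranged from 394 to 445 CPM. ZBTB17 stood at 15.7 and 22.6 CPM without doxycycline and at 11.0 and 11.4 CPM with it, in DMSO and BI8622. This lower level in both treatments did not pass the test over all genes (adjusted p = 0.45). The summed level of 11 colon epithelium markers lay between 1949 and 3272 CPM. The few fibroblast, leukocyte and endothelial markers present in the tables summed to at most 8.09, 9.45 and 2.61 CPM, and the defining genes COL1A2, CD3E and PECAM1 were not among the genes listed.

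The study turns on MIZ1 and its partner MYC, which binds as a dimer with MAX to the E-box CACGTG, so the promoters of the 55 genes were read for this motif (a palindrome, the same on both strands). The windows ran from 250 bases before to 50 bases after the start of each gene's canonical transcript in GRCh37, and 53 of the 55 genes had a window. The E-box was present in 6 of these 53 windows (11.3%), against 9.89% of the 14212 windows of all protein-coding genes tested. Among the 41 windows of genes that fell with BI8622, 5 held it (12.2%), and among the 12 windows of genes that did not pass the test, 1 held it (8.33%). By class the counts were 5 of 23 hnRNP windows (21.7%), 1 of 8 SF3 windows, 0 of 10 SR protein windows and 0 of 12 snRNP protein windows. The 7 matches are printed because they are the only copies of the motif in these windows, each with 12 bases on either side, 5′ to 3′ on the strand of the gene, with the E-box in capitals.
HNRNPA3, plus strand, chr2:178077439-178077468: cggaaaacgcgtCACGTGacgactggcccc
HNRNPD, minus strand, chr4:83295154-83295183: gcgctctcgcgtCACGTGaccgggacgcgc
HNRNPDL, minus strand, chr4:83351725-83351754: ggagcccgagacCACGTGggcaggaaaagg
HNRNPH2, plus strand, chrX:100663156-100663185: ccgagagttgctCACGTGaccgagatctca
HNRNPH2, plus strand, chrX:100663189-100663218: gacgtaggcgctCACGTGattactcgctta
HNRNPM, plus strand, chr19:8509805-8509834: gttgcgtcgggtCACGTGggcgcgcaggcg
SF3B1, minus strand, chr2:198299843-198299872: tggcagttctgtCACGTGtcacccgacgga
All 7 matches lay upstream of the canonical start, at 9 to 127 bases. The matches of HNRNPA3 and HNRNPM also fell within exons of other annotated transcripts of these genes, that of HNRNPD lay within the annotated gene but in no exon, and the pair of HNRNPH2 lay within the readthrough gene RPL36A-HNRNPH2. A match is a description of these letters and not a bound site. Of the genes shown, the 5 hnRNP genes fell with BI8622, beside 18 of all 24 hnRNP genes (75%). SF3B1 did not pass the test (log2 -0.11, adjusted p = 0.188). A link between the motif and the fall was not tested.

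BI8622 lowered most of these genes in all 4 arms. Of the 55 genes, 43 fell (78.2%), 0 rose and 12 did not pass the test, whereas among all genes tested 22.1% fell and 23.3% rose (45.4% in either direction). The median change of the 55 genes was -0.37 on the log2 scale, beside 0.01 for all genes. The change was negative in each of the 4 arms for 46 of the 55 genes, against 28.1% of all genes tested, and 0 of the 55 were higher in all 4 arms. The fall was seen in each class, with 8 of 11 SR protein genes, 18 of 24 hnRNP genes, 11 of 12 snRNP protein genes and 6 of 8 SF3 genes. The class medians were -0.37, -0.34, -0.48 and -0.41. Of the 43 genes, 36 also fell in each experiment when it was fitted alone. Leaving out single arms changed the count to between 35 and 46.

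**Figure D1:**
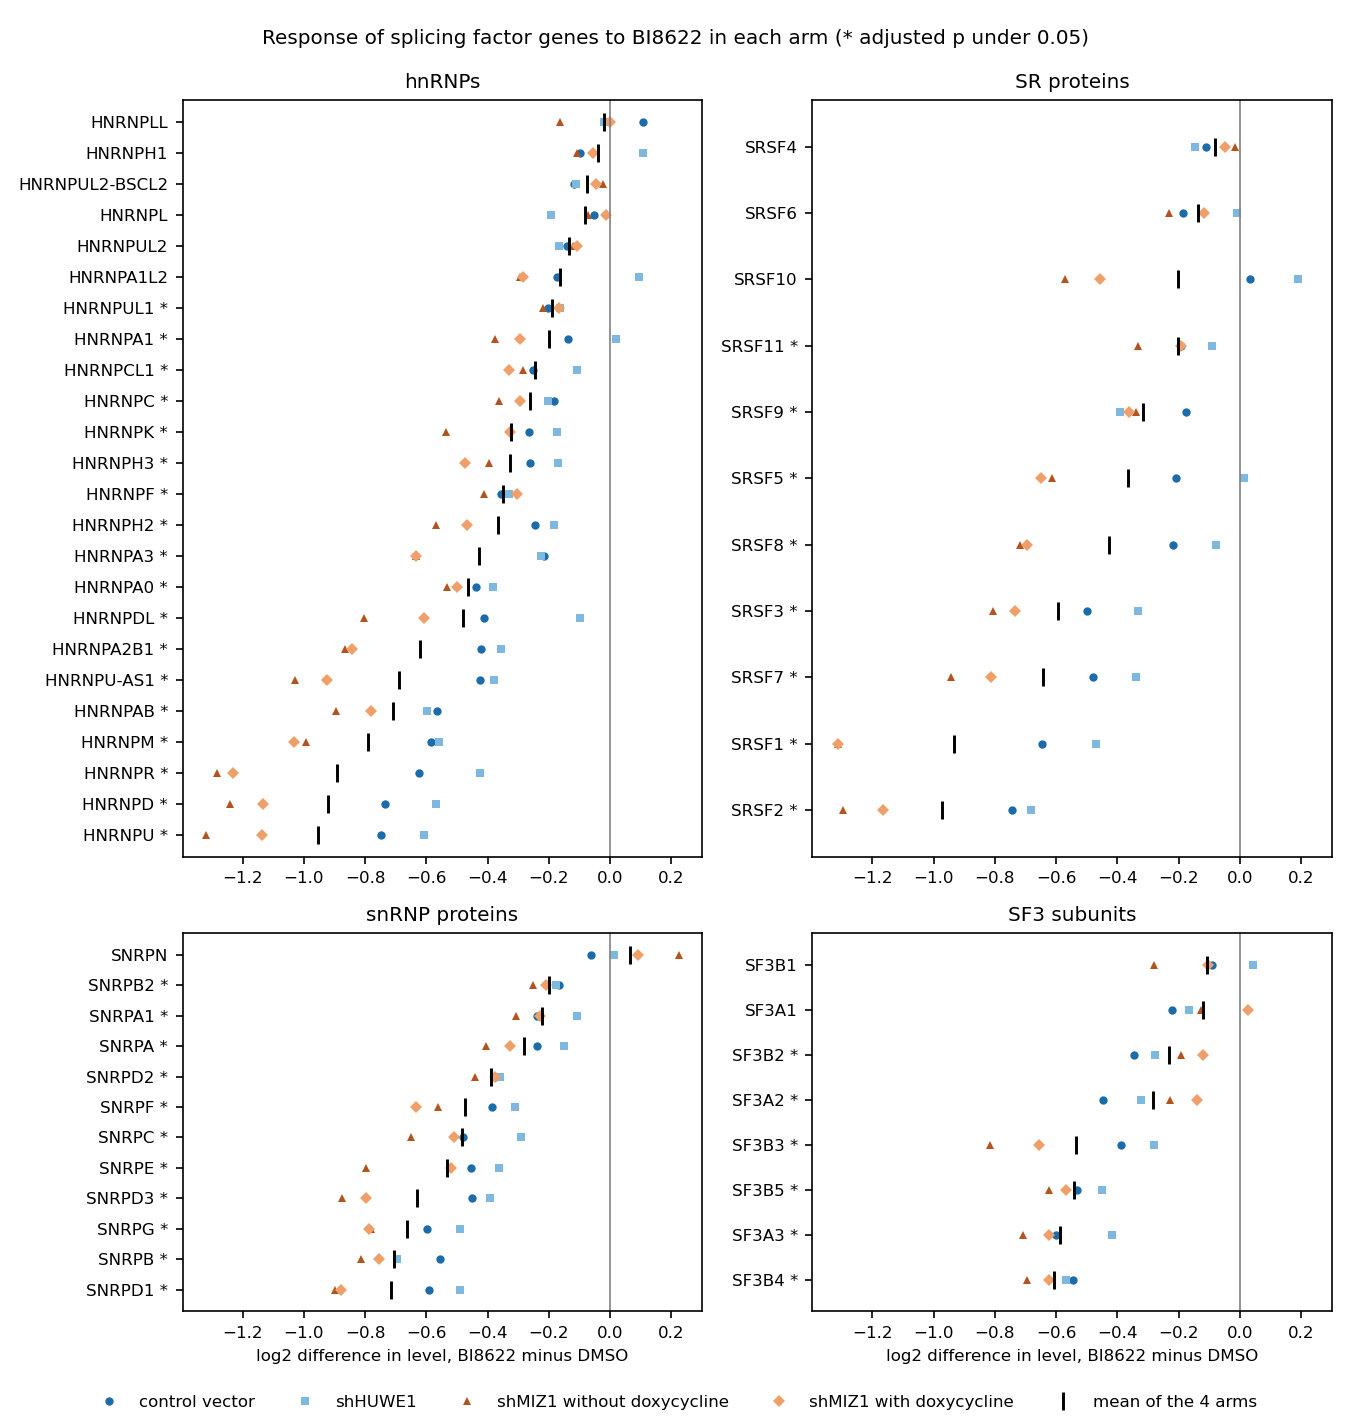
Change of each of the 55 genes with BI8622 (log2 level in BI8622 minus DMSO, x axis) by class, with a coloured marker for each of the 4 arms and a black bar for their mean. Asterisks mark adjusted p under 0.05. All 43 genes with an asterisk lie left of 0, and for most of the strongly lowered genes both arms of the MIZ1 experiment lie further left than both arms of the HUWE1 experiment.

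Among the SR proteins, the largest changes were those of SRSF2 and SRSF1. SRSF2, which binds exonic enhancers and promotes exon inclusion, went from 310 to 185 CPM with the empty vector, from 276 to 172 CPM with shHUWE1, from 321 to 130 CPM without doxycycline and from 310 to 137 CPM with it. Every BI8622 group lay below every DMSO group. The mean change was -0.97 ± 0.10 on the log2 scale, a ratio of 0.51 (adjusted p = 0.000151). Here and below, ± is the SE of the limma fit in question, which draws the spread of each gene towards that of other genes. SRSF1, the founding member of the family and a known oncoprotein, went from 363 to 232 CPM, from 307 to 221 CPM, from 429 to 172 CPM and from 405 to 163 CPM in the same order. Its groups did not overlap either, and in the MIZ1 experiment BI8622 left 40.1% of the DMSO level in each arm. The mean change of SRSF1 was -0.93 ± 0.14 (adjusted p = 0.000732).

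SRSF7 and SRSF3, small SR proteins that also link splicing to mRNA export, fell by 0.64 and 0.59 on the log2 scale (adjusted p = 0.000751 and 0.000479). SRSF3 kept 70.7% and 79.4% of its DMSO level in the HUWE1 experiment and 57.1% and 60.0% in the MIZ1 experiment. SRSF8 (-0.43), SRSF5 (-0.37), SRSF9 (-0.32) and SRSF11 (-0.20) also fell, at adjusted p of 0.0116, 0.0198, 0.00199 and 0.0172. With shHUWE1, SRSF5 had 163 CPM under DMSO against 165 CPM under BI8622, so that its lower levels lay in the other arms. The calls of SRSF5, SRSF8 and SRSF11 were lost when the arm with doxycycline was left out, those of SRSF5 and SRSF11 also without the arm without doxycycline, and that of SRSF11 also without the empty-vector arm.

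The remaining 3 SR protein genes did not pass the test. SRSF10, a splicing repressor when dephosphorylated, went from 236 to 241 CPM and from 248 to 283 CPM in the HUWE1 experiment, but from 326 to 219 CPM and from 307 to 223 CPM in the MIZ1 experiment. Its mean change of -0.20 (adjusted p = 0.196) thus stands for arms of opposite sign. SRSF6 (-0.14, adjusted p = 0.0765) stood at 85.2% to 99.3% of DMSO over the 4 arms, and its interval ran from -0.26 to -0.009. SRSF4 (-0.08, adjusted p = 0.243) was nearer its DMSO level, at 90.3% to 98.8% over the 4 arms. The interval for SRSF4 ran from -0.20 to 0.04.

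Of the hnRNP genes, HNRNPU, HNRNPD and HNRNPR changed most. HNRNPU, a scaffold attachment protein that binds nuclear RNA and chromatin, went from 721 to 428 CPM with the empty vector, from 650 to 426 CPM with shHUWE1, from 821 to 328 CPM without doxycycline and from 760 to 345 CPM with it. The DMSO and BI8622 groups did not overlap, and the lowest BI8622 levels were those of the MIZ1 experiment, whose DMSO levels were the highest. The mean change was -0.95 ± 0.11 (adjusted p = 0.000221). HNRNPD (AUF1), a binder of AU-rich elements, went from 296 to 177, from 258 to 174, from 264 to 111 and from 266 to 121 CPM, a change of -0.92 ± 0.10 (adjusted p = 0.000224). HNRNPR went from 256 to 166, from 238 to 177, from 275 to 113 and from 261 to 110 CPM, a change of -0.89 ± 0.13 (adjusted p = 0.000837). For both genes all BI8622 groups again lay below all DMSO groups.

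HNRNPM (-0.79), HNRNPAB (-0.71), HNRNPU-AS1 (-0.69), HNRNPA2B1 (-0.62) and HNRNPDL (-0.48) followed, at adjusted p between 0.0001 and 0.00432. HNRNPA2B1, an abundant core hnRNP, went from 1328 to 992 CPM, from 1202 to 939 CPM, from 1215 to 666 CPM and from 1192 to 665 CPM, so that DMSO levels were alike in all arms and BI8622 levels were lower in the MIZ1 experiment. HNRNPU-AS1 is named as the antisense partner of HNRNPU, and because it is not stated whether reads were counted by strand, its values and those of HNRNPU cannot be told apart.

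The other 10 hnRNP genes that fell changed by less, from -0.46 (HNRNPA0) to -0.19 (HNRNPUL1). Among them were HNRNPK (-0.33) and HNRNPC (-0.26), binders of C-rich and U-rich RNA, as well as HNRNPA3, HNRNPH2, HNRNPF, HNRNPH3, HNRNPCL1 and HNRNPA1. The call of HNRNPA1, the best known splicing silencer protein, lay just within the threshold (-0.20 ± 0.070, adjusted p = 0.0453). With shHUWE1, HNRNPA1 had a level of 283 CPM under DMSO and of 287 CPM under BI8622, and the call was lost on leaving out any arm except that of shHUWE1. The same held for HNRNPCL1 and HNRNPUL1.

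HNRNPUL2, HNRNPA1L2, HNRNPL, HNRNPUL2-BSCL2, HNRNPH1 and HNRNPLL did not pass. HNRNPUL2 was just outside the threshold (-0.13, adjusted p = 0.0501). HNRNPL, which binds CA repeats, and its paralog HNRNPLL had mean changes of -0.08 and -0.02. HNRNPH1, which binds G-rich sequences, went from 516 to 482, from 459 to 494, from 610 to 567 and from 611 to 588 CPM. Its paralogs HNRNPH2 and HNRNPH3 had changes of -0.37 and -0.33, beside -0.04 for HNRNPH1, whose interval ran from -0.17 to 0.09.

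Of the snRNP protein genes, 11 of 12 fell. SNRPB, SNRPD1, SNRPD2, SNRPD3, SNRPE, SNRPF and SNRPG code for the Sm ring, and all 7 fell. SNRPD1 went from 66.2 to 43.6 CPM, from 60.1 to 42.6 CPM, from 60.5 to 32.0 CPM and from 64.5 to 34.6 CPM, in the order of arms used above. The BI8622 groups lay below all DMSO groups, and the mean change was -0.71 ± 0.080 (adjusted p = 0.000216). SNRPB changed by -0.71 ± 0.059, the lowest adjusted p of the 55 genes (6.87e-05). Its residual level was 67.8% with the empty vector, 61.4% with shHUWE1, 56.6% without doxycycline and 59.0% with it. SNRPG (-0.66), SNRPD3 (-0.63), SNRPE (-0.53), SNRPF (-0.47) and SNRPD2 (-0.39) had adjusted p between 0.000209 and 0.000755.

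The U1 proteins SNRPC and SNRPA fell by 0.48 and 0.28 on the log2 scale (adjusted p = 0.000692 and 0.00509), and the U2 proteins SNRPA1 and SNRPB2 by 0.22 and 0.20 (adjusted p = 0.0198 and 0.0183). The calls of SNRPA1 and SNRPB2 were lost without either arm of the MIZ1 experiment, and that of SNRPA1 also without the empty-vector arm. SNRPN, the SNRPB paralog from the imprinted Prader-Willi locus and mostly known from neurons, was the only snRNP gene that did not pass. It stood at 59.1 and 56.5 CPM, 60.4 and 60.9 CPM, 48.2 and 56.5 CPM, and 54.7 and 58.3 CPM in DMSO and BI8622 of the 4 arms. The mean change was 0.07 ± 0.064 (adjusted p = 0.434).

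Among the SF3 genes, SF3B4 (-0.61 ± 0.058), SF3A3 (-0.59 ± 0.062), SF3B5 (-0.54 ± 0.058) and SF3B3 (-0.54 ± 0.086) fell at adjusted p of 0.000105 to 0.00114. SF3B3, a scaffold subunit of SF3B, went from 351 to 268, from 346 to 284, from 355 to 201 and from 352 to 223 CPM. Its 4 DMSO levels were nearly equal and its BI8622 levels all lay below them. SF3A2 (-0.28) and SF3B2 (-0.23) fell less (adjusted p = 0.00721 and 0.00879). SF3B1, the largest subunit and the target of splicing inhibitors, stood at 93.8%, 103%, 82.4% and 93.0% of its DMSO level over the 4 arms (-0.11, adjusted p = 0.188), and SF3A1 at 85.7% to 102% (-0.12, adjusted p = 0.116). The medians over the class were -0.42 and -0.30 in the arms of the HUWE1 experiment and -0.45 and -0.35 in those of the MIZ1 experiment.

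Several of these genes share sequence with others, and how reads with more than 1 possible origin were counted is not stated in the methods or labels. HNRNPA1 had 65 pseudogene entries with a summed level of 997 CPM in the empty-vector DMSO group, 356% of the level of HNRNPA1 itself. The pseudogenes of SNRPG summed to 183% of the parent and those of HNRNPA3 to 123%. For the parent and its pseudogenes together, the mean change was -0.22 for HNRNPA1, -0.72 for SNRPG and -0.48 for HNRNPA3, close to the -0.20, -0.66 and -0.43 of the parent alone. Those of HNRNPK, SNRPE and HNRNPC summed to 74.9%, 74.8% and 71.5%. HNRNPUL2 and the readthrough gene HNRNPUL2-BSCL2 share 2391 exonic bases, 59.8% of the exonic bases of the latter. The close pairs SNRPB and SNRPN, SRSF2 and SRSF8, HNRNPC and HNRNPCL1, and HNRNPA1 and HNRNPA1L2 are uncertain for the same reason.

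Other splicing genes were counted in 13 lists, of which the Sm, U1 and U2 lists overlap with the 55 genes. The fall extended to the U1 list (3 of 3, with SNRNP70 at -0.68), the U2 list (9 of 11 in the tables, with PHF5A of SF3B at -0.74) and the LSM ring proteins of the U6 snRNP (6 of 7, with LSM4 at -0.54 and LSM1, of the cytoplasmic ring, at -0.09 without passing). Of the 15 U5 and tri-snRNP genes 11 fell and 0 rose, led by the helicase DDX23 (-0.77), PRPF4 (-0.73) and SNRNP40 (-0.59). PRPF8, at the catalytic core, stood at -0.14 (adjusted p = 0.085). These counts are again to be read against the 22.1% of all genes that fell.

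Of 15 genes for snRNP assembly and import 8 fell and 1 rose, beside 22.1% and 23.3% of all genes tested. GEMIN4 (-1.11), GEMIN5 (-0.91) and WDR77 (-0.76), which act with the SMN complex or the methylosome to load Sm proteins on RNA, were the largest changes. GEMIN4 went from 79.2 to 44.3, from 75.8 to 42.1, from 85.6 to 32.4 and from 87.5 to 32.6 CPM. GEMIN8 of the same complex rose (0.51). Among 6 factors of the 3′ splice site 3 fell, with U2AF2 at -0.49, PUF60 at -0.39 and U2AF1 at -0.30. Among 18 genes listed for the PRP19 complex and for helicases, of the DEAH type and others, 10 fell and 2 rose (DDX46 -0.66, DHX15 -0.58, PRPF19 -0.52).

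The minor spliceosome, which removes a rare class of introns, had 1 of 8 genes lower and 2 higher. Among all genes tested 22.1% fell and 23.3% rose, so these few genes give no count apart from those shares. The counts of the other lists here are to be read beside the same shares. SNRNP25 fell (-0.86), whereas RNPC3 (0.26) and ZRSR2 (0.24) rose. The 16 SR-related proteins had 5 lower and 2 higher, and the paralogs TRA2B (-0.59) and TRA2A (0.40) lay on opposite sides, with PNN at -0.54. TRA2A was 78.3, 82.3, 87.9 and 86.1 CPM under DMSO, and 99.1, 94.6, 125 and 130 CPM under BI8622, so that all 4 BI8622 levels were the higher ones. Of 29 other splicing regulators 14 fell, including TARDBP (-0.79) and SYNCRIP (-0.66), and 6 rose, including MBNL2 (0.81). Of 16 genes of the exon junction complex and mRNA export 9 fell and 3 rose (ALYREF -0.80, NXT1 -0.73, UPF3B -0.67).

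**Figure D2:**
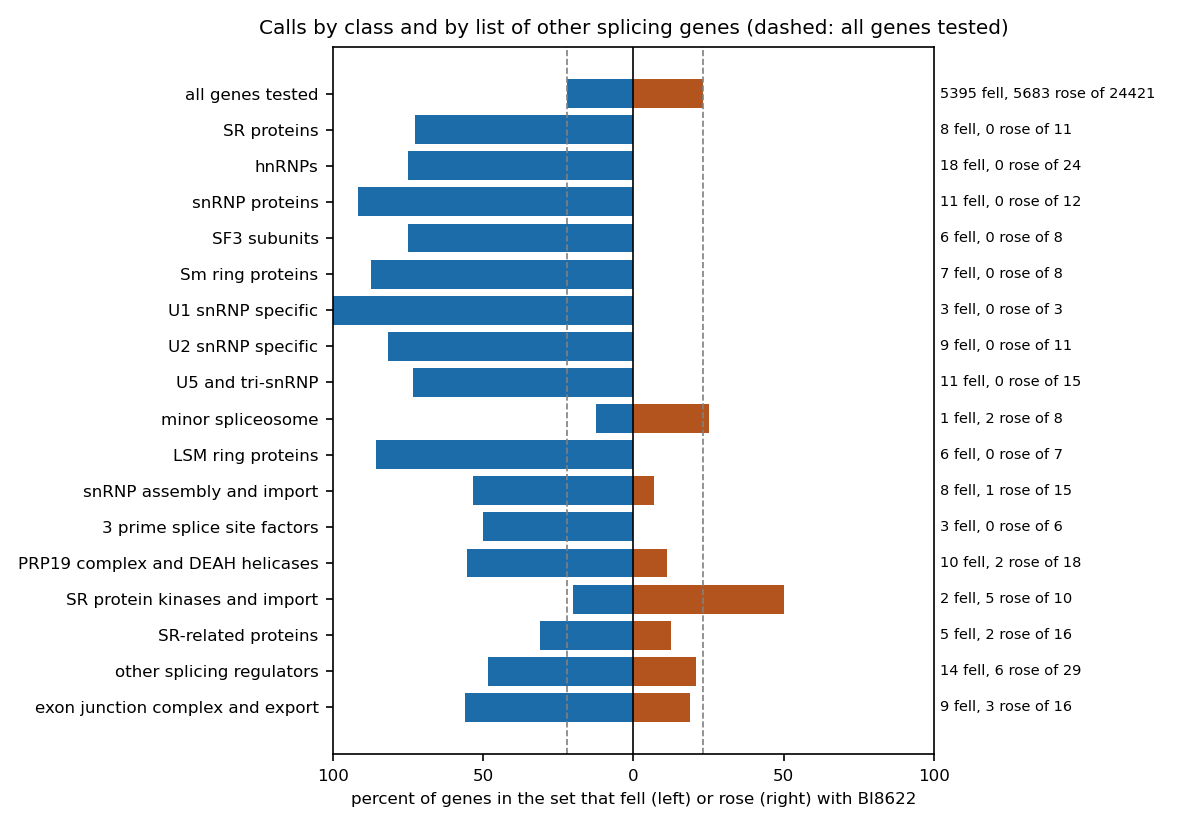
Percent of the genes of each class and list that fell (blue, left) or rose (orange, right) with BI8622, with the counts at the right and dashed lines at the 22.1% and 23.3% of all genes tested. The 4 classes reach from 72.7% to 91.7% on the left with nothing on the right, and the list of SR protein kinases and import reaches right, with 5 of 10 genes.

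The kinases of SR proteins moved apart. Of the 10 genes for these kinases and for SR protein import and regulation, 5 rose and 2 fell. Among all genes tested 23.3% rose and 22.1% fell. The nuclear CLK family kinases CLK3 (0.79 ± 0.11), CLK1 (0.70 ± 0.090), CLK4 (0.66 ± 0.11) and CLK2 (0.20 ± 0.064) rose at adjusted p of 0.000397 to 0.029. CLK1 went from 38.5 to 51.2 CPM, from 35.9 to 53.9 CPM, from 55.1 to 101 CPM and from 56.9 to 110 CPM. CLK3 went from 60.6 to 82.7, from 60.4 to 90.8, from 64.6 to 138 and from 63.9 to 133 CPM. For CLK3 the groups did not overlap, whereas for CLK1 the DMSO levels of the MIZ1 experiment lay above the BI8622 levels of the HUWE1 experiment. DYRK1A, a related kinase, rose by 0.44 on the log2 scale. SRPK1, the main cytoplasmic SR protein kinase, went from 266 to 182, from 251 to 191, from 292 to 137 and from 274 to 136 CPM and fell (-0.76 ± 0.11, adjusted p = 0.0007). Its paralog SRPK2 stood at 0.11 (adjusted p = 0.126), and the SR protein import factor TNPO3 fell (-0.26).

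**Figure D3:**
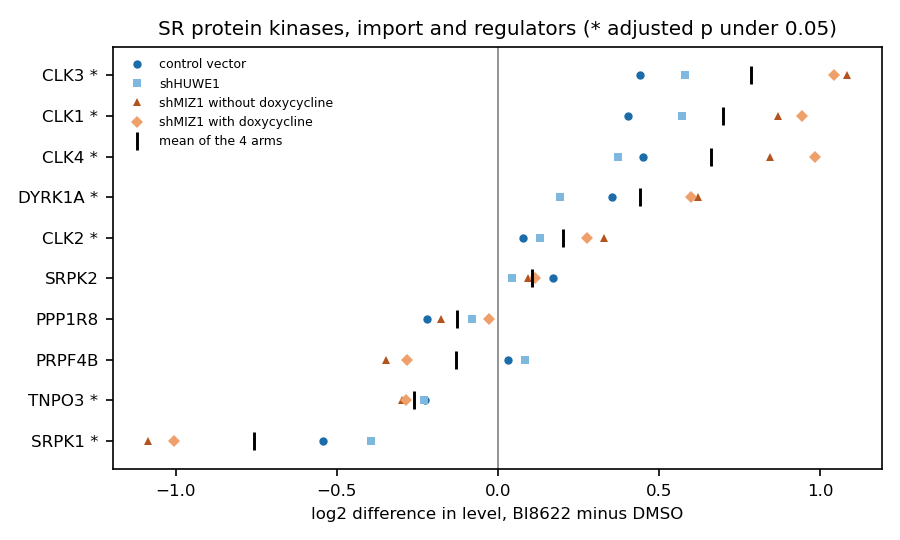
Change with BI8622 (log2 level in BI8622 minus DMSO, x axis) of the 10 genes for kinases, import and regulation of SR proteins in the 4 arms (markers) and their mean (bar). Asterisks mark adjusted p under 0.05. All 4 CLK genes lie right of 0 in each arm and SRPK1 lies left of 0 in each arm.

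The response to BI8622 was larger in the MIZ1 experiment for many of the genes. The median response of the 55 genes was -0.34 with the empty vector, -0.28 with shHUWE1, -0.56 without doxycycline and -0.47 with it. It was more negative in the MIZ1 experiment for 47 of the 55 genes, against 47.6% of all genes tested. In the test of the difference between experiments, 21 genes had a more negative response in the MIZ1 experiment and 0 a less negative one. Among all genes tested 6.65% were called in the first and 6.63% in the second direction (13.3% in either). The test rests on 2 arms in each experiment, and without its mean-variance trend it called 0 of the 55 genes and 0 of all genes, with a lowest adjusted p of 0.0875 among the 55.

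Of the 21 genes, 7 were SR protein genes, 11 hnRNP genes, 2 snRNP genes (SNRPD3 and SNRPD1) and 1 an SF3 gene (SF3B3). SRSF1 had the largest difference, with mean responses of -0.56 and -1.31 in the HUWE1 and MIZ1 experiments (difference -0.76 ± 0.072, adjusted p = 3.32e-05). HNRNPR followed with -0.52 and -1.26 (adjusted p = 6.03e-05) and SRSF10 with 0.11 and -0.51 (adjusted p = 0.000164). SRSF10, SRSF5 and SRSF8 had responses near 0 in the HUWE1 experiment, at 0.11, -0.10 and -0.15, and of -0.51, -0.63 and -0.71 in the MIZ1 experiment. SF3B4 (-0.56 and -0.66), SNRPB (-0.63 and -0.78) and HNRNPF (-0.34 and -0.36) did not pass, and for HNRNPF the interval of the difference ran from -0.16 to 0.13. The experiments differ in vector, in the generation of the cells and possibly in library kit, and these cannot be told apart.

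**Figure D4:**
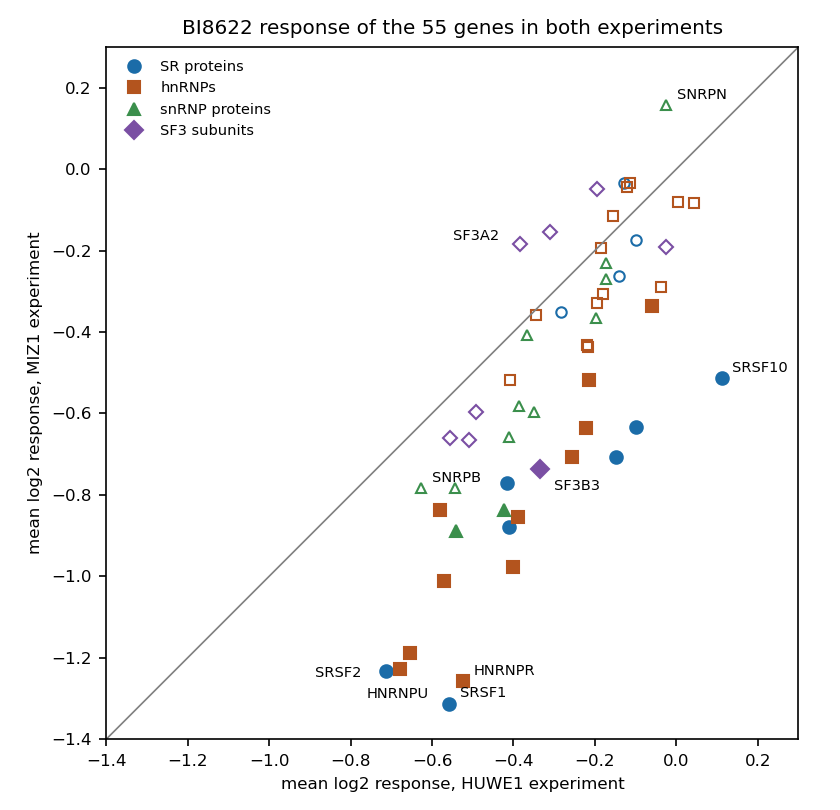
Mean log2 response to BI8622 of each of the 55 genes in the HUWE1 experiment (x axis) and the MIZ1 experiment (y axis), coloured by class, with the line of equal response. Filled symbols are the 21 genes whose difference had an adjusted p under 0.05 (0 without the mean-variance trend), and all of them lie below the line, with SRSF1, HNRNPR, HNRNPU and SRSF2 lowest.

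Depletion of HUWE1 gave no call among the 55 genes. With shHUWE1 against the empty vector, 0 of the 55 genes passed the test in limma, beside 74 of all genes tested (0.303%, with 0.152% lower and 0.152% higher), with 2 of the 55 at an unadjusted p under 0.05 and 0 of them in the fit without the trend. Of the 55 estimates 43 were below 0, against 51.8% of all genes tested, with a median of -0.07 (-0.0064 over all genes) and a range from -0.23 (SNRPB) to 0.15. The median was -0.11 in the DMSO groups and -0.04 in the BI8622 groups. SNRPB stood at 166 CPM with the empty vector and 148 CPM with shHUWE1 in DMSO, and at 112 and 91.1 CPM in BI8622. The lowest and highest bounds of the 95% intervals over the 55 genes were -0.59 and 0.53. Only the largest BI8622 changes, such as that of SRSF1 (-0.93), lay outside all of them. The median BI8622 change of -0.37 lay within some intervals, such as that of SRSF1 (-0.59 to 0.29). It lay outside others, such as that of HNRNPF (-0.21 to 0.11). The intervals differed in width between genes, with SEs from 0.069 to 0.19 and a median of 0.093. Each SE came from the fit over all 8 groups and was wider where the arms responded unequally to BI8622, as for SRSF1. It is thus not a spread of the depletion effect alone, and each gene has the same SE for doxycycline below.

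MIZ1 depletion by doxycycline likewise gave 0 calls among the 55 genes in limma, also at an unadjusted p under 0.05 and without the trend, beside 4 of all genes tested (0.0164%, with 0.00409% lower and 0.0123% higher). The estimates ranged from -0.11 to 0.17 with a median of 0.03, which was -0.01 in the DMSO groups and 0.06 in the BI8622 groups. The intervals ran at most from -0.52 to 0.40. ZBTB17 itself changed by -0.70 without passing in limma (adjusted p = 0.45), so 0 calls do not show that the 55 genes stayed the same. With BI8622, the levels left were 40.1% of the DMSO level for SRSF1 in each arm and 40.0% and 45.4% for HNRNPU without and with doxycycline. The difference between these arms was not tested, since each gives 1 response.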

How the data were processed

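Poly-A RNA of 16 libraries in 8 groups of 2 was sequenced on a Genome Analyzer IIx, and 6 ChIP samples were not analysed here. The reads were aligned by the authors to hg19 with Bowtie 0.12.8, which does not align across splice junctions, and compared in edgeR, per the labels and methods. CASAVA and FastQC are also named in the submitters' processing notes. The counting, its strand, the edgeR version and the filter are not given in the sources used, nor is it given which of 2 library kits made which library.

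The tables deposited by the authors hold, for each compared pair of groups, a mean level in log2 CPM over 4 libraries, a fold change, a p-value and an adjusted p-value. The last 3 are the authors' own comparisons and were not used. The linear means of overlapping pairs were solved by least squares for the level of each group, taking the groups of a pair as equally weighted. The MIZ1 experiment has 1 pair more than needed, and the pairs closed within 0.085% (median over 17256 genes) and 0.439% (99th percentile). The HUWE1 experiment has no pair to spare, so this was not checked there. One solved level below 0 was set to 0.

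Levels were tested as log2(CPM + 1) with limma 3.58.1 (R 4.3.3), with the mean-variance trend, genes of at least 1 CPM, arm and drug as terms (3 residual degrees of freedom), Benjamini-Hochberg adjustment and a threshold of 0.05. The difference between experiments was fitted on the 4 responses (2 residual degrees of freedom). The BI8622 test was also run on simulated data in which each change was the same in all 4 arms. Responses that differ between experiments, and the other tests, were not covered by it. The p-values rest on the spread between arms, which limma draws towards that of other genes of similar level, and no library replicate enters them.

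The alternatives were another pseudocount (0.25 CPM), other filters, centring on the median, no trend, each arm left out, an experiment term and each experiment alone. Promoter windows and positions came from GRCh37 with GENCODE v44lift37. Named were, in each class, the called genes up to the 8 largest changes, those with the highest level and extreme changes, up to 5 called in other comparisons, and up to 3 per list. The remaining class members, PRPF8, LSM1, GEMIN8 and the further kinase genes were named after their values were seen. The 55 genes, the lists and the rule were chosen with earlier results of these data known.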

Additional observations from a re-analysis of the deposited data

Results flagged for a closer look

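For 21 of the 55 genes the response to BI8622 differed between the experiments in limma, each time more negative in the MIZ1 experiment (6.65% of all genes tested were called in this direction). The values below are the MIZ1 response minus the HUWE1 response on the log2 scale. Among SR protein genes they were -0.76 for SRSF1, -0.62 for SRSF10, -0.56 for SRSF8, -0.53 for SRSF5, -0.52 for SRSF2, -0.47 for SRSF7 and -0.36 for SRSF3. Among hnRNP genes they were -0.73 for HNRNPR, -0.58 for HNRNPU-AS1, -0.55 for HNRNPU, -0.53 for HNRNPD, -0.47 for HNRNPA2B1, -0.45 for HNRNPDL, -0.44 for HNRNPM, -0.41 for HNRNPA3, -0.30 for HNRNPH2, -0.28 for HNRNPA1 and -0.26 for HNRNPAB. They were -0.41 for SNRPD3, -0.35 for SNRPD1 and -0.40 for SF3B3. In limma without the trend 0 of the 55 genes passed, with 21 of the 55 at an unadjusted p under 0.05. The vector and the generation of the cells go with the experiment and cannot be told apart from it.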

How the results depend on the processing

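The count of 43 lower genes with BI8622 ranged from 35 to 49 over the alternatives, with 38 in the HUWE1 experiment alone and 48 in the MIZ1 experiment alone. Of the 43, 35 were called under every alternative run. The shares of all genes called lower under these alternatives are not given here, and a fit of a single experiment rests on only 2 arms. In the MIZ1 experiment alone 1 of the 55 genes rose (SNRPN, 0.16, adjusted p = 0.0199), against 0 over all arms. In the HUWE1 experiment alone the sign turned for SNRPN (-0.025), HNRNPLL (0.043), HNRNPH1 (0.0045) and SRSF10 (0.11). Without the arm without doxycycline it turned for HNRNPLL (0.029). None of these genes passed in the fit where its sign turned or over all arms. In limma without the mean-variance trend the difference between experiments called 0 of the 55 genes (21 with it) and 0 of all genes (1625 lower and 1620 higher with it), where 21 of the 55 and 5520 of all genes had an unadjusted p under 0.05. The same choice took the calls over all genes from 74 to 12 for shHUWE1 and from 4 to 0 for doxycycline (1151 at an unadjusted p under 0.05), and the minimum of 5 CPM took the latter to 2. The causes were not tested. No paired analysis was possible because the tables hold no value per library. Median levels of the 8 groups differed by less than 0.1 on the log2 scale. Depth is unknown, and the spread between libraries cannot be given for any value.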
